A study of Homo sapiens with 6 samples.

Results

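The S100 genes described here were S100A2, S100A4, S100A6, S100A7, S100A8, S100A9, S100A10, S100A14, S100A16, and S100P, taken as every probe that the array design assigns to one of these symbols. Each gene had 1 probe, so the group comprised 10 of 50599 probes and 10 of 36337 gene names on the array. The study asked which genes depend on DLEU1, a long noncoding RNA, in oral squamous cell carcinoma (OSCC) cells. HSC-3, KON, and Ca9-22, all established OSCC lines, were transfected either with a control siRNA (siCtrl) or with siDLEU1-2, a siRNA against DLEU1, and RNA was collected after 72 h. Each line gave 1 array per siRNA, or 6 arrays in all, so both groups held the same 3 lines, both were exposed to the transfection reagent, and only 1 siRNA against DLEU1 was used.

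S100 proteins are small calcium-binding proteins with EF-hand motifs that exist only in vertebrates and mostly work as dimers. Inside the cell they bind targets such as annexins and cytoskeletal proteins when calcium rises, and some are released and act on receptors such as RAGE (encoded by AGER) and TLR4. In stratified epithelium many of them follow the state of keratinocyte differentiation or inflammation, and most of their genes lie together in the epidermal differentiation region of chromosome 1. That arrangement was seen in the probe coordinates (hg19). The probes of 9 members mapped to chromosome 1, from the S100A10 probe at chr1:151955420-151955479 to the S100A14 probe at chr1:153587006-153587065, whereas the S100P probe mapped to chr4:6698819-6698878. The S100P and S100A9 probes read the plus strand and the other 8 the minus strand. Whether each probe lies in coding or untranslated sequence was not determined here.

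The members differ in the sequence just upstream of their start sites, and short stretches are shown for the members that held a match to one of the motifs searched. The 250 bases before each RefSeq start (GRCh38.p14) were searched on both strands for TATAAA, for the AP-1 site TGANTCA, and for the C/EBP site TTGCNNAA, and no member held matches of 2 of these motifs. A gene counted as holding a motif where any of its start windows did, and S100A2, S100A16, and S100A8 had more than 1 start. TATAAA was present in 5 of 10 members and in 13% of 27305 genes, or in 6 of the members' 14 windows and in 10.7% of 35116 windows. TGANTCA was present in 1 of 10 members and in 8.06% of genes, or in 1 of 14 windows and in 6.57% of all windows. TTGCNNAA was present in 0 of 10 members and in 11% of genes, or in 0 of 14 windows and in 9.05% of all windows. Each stretch runs 5′ to 3′ on the strand of the gene, with the matched motif in capitals.
S100A4, chr1:153545820-153545849, minus strand: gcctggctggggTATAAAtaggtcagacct
S100A7, chr1:153460662-153460691, minus strand: caggctgagcctTATAAAggactgctcttt
S100A8, chr1:153391085-153391114, minus strand: aagcctaaccgcTATAAAaaggagctgcct
S100A9, chr1:153357813-153357842, plus strand: tcaggagctgccTATAAAtgccgagcctgc
S100P, chr4:6693838-6693867, plus strand: atgaggctgcctTATAAAgcaccaagaggc
S100A2, chr1:153565879-153565908, minus strand: aggagtgggctgTGACTCAcaggcatgtca
The TATAAA matches shown began 28 to 31 bases before the start, and the S100A8 match also lay in the window of another S100A8 start, 126 bases before it. The AP-1 match of S100A2 began 52 bases before its start. A match is a string of letters, and no binding was measured.

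Levels are given as the log2 of the processed signal relative to the 75th percentile of all probes on the same array, so that a level of 0 equals that percentile. The 75th percentile itself corresponded to a signal of 200 to 257 on the 6 arrays, and Feature Extraction flagged 43% to 45.7% of probes per array as well above background. DLEU1 was lower with siDLEU1-2 in every line. On the log2 scale, HSC-3 gave 1.39 with siCtrl and −2.71 with siDLEU1-2, KON gave 2.16 and −1.48, and Ca9-22 gave 1.56 and −1.88. All control values exceeded all knockdown values, and the mean log2 change was −3.72 ± 0.34 (SD, n = 3 lines; limma adjusted p = 0.0227). All 9 squamous epithelial markers examined (KRT5, KRT14, KRT17, KRT6A, SFN, DSP, DSC3, CDH3, and EPCAM) had 1 or more probes that exceeded background on all 6 arrays. Of 6 measured myeloid markers, CD14 and CSF3R also exceeded background on all arrays, whereas MPO and ELANE did so on none. Of 6 fibroblast markers, COL1A1 exceeded background on all arrays, and COL3A1, LUM, PDGFRB, and THY1 on none. In bulk RNA of this kind, fewer cells expressing a gene and less RNA per cell cannot be told apart.

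The S100 genes did not move as one block after DLEU1 knockdown. S100A4 rose, S100A2 fell, and S100P showed the largest mean change, being higher in all 3 lines, but did not pass the test. S100A8 and S100A9 were lower in HSC-3 and KON but were not well above background in Ca9-22, and S100A6, S100A10, S100A14, and S100A16 did not pass the test. A probe entered the test if every line had 1 or more arrays on which it was well above background, and 7 of the 10 probes did so among 19956 in all. S100A7, S100A8, and S100A9 failed that filter because of Ca9-22.

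**Figure D1:**
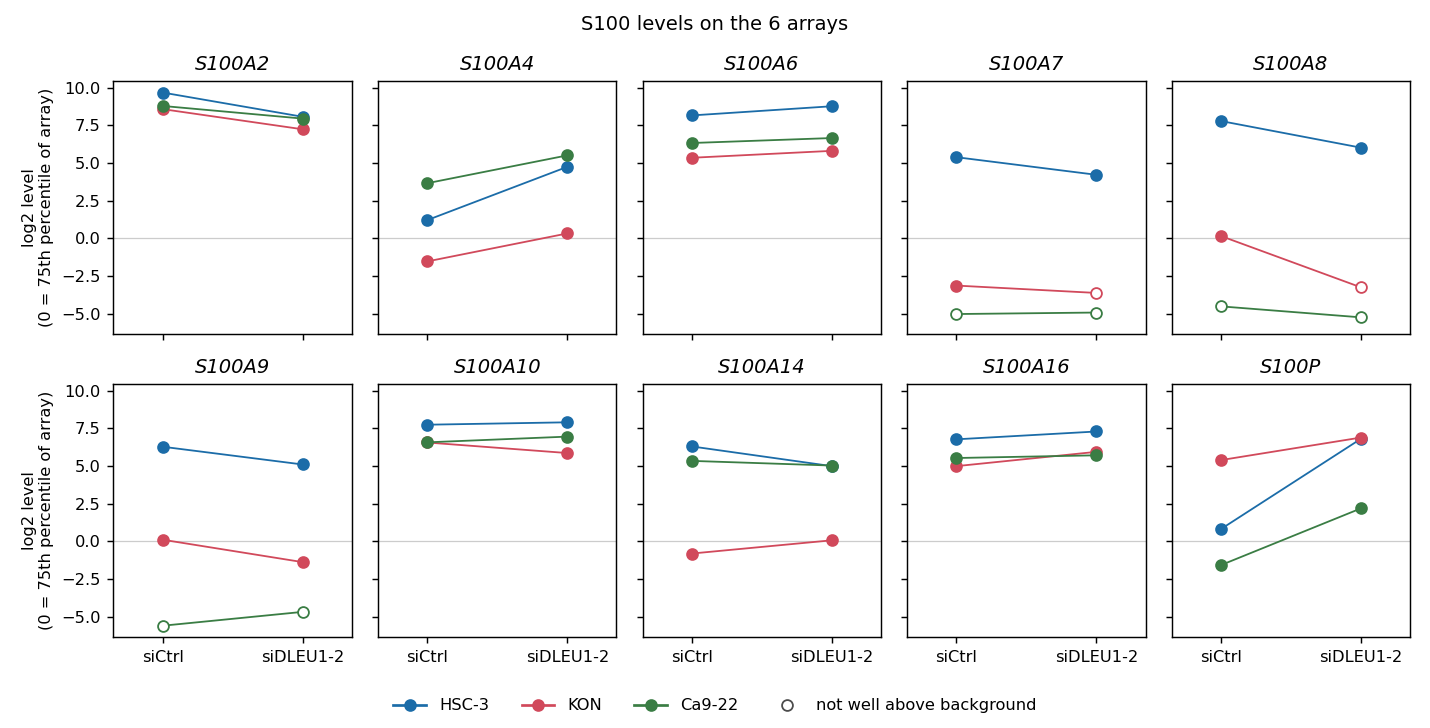
Log2 level of each S100 gene on the 6 arrays (y axis, relative to the 75th percentile of each array) with siCtrl and siDLEU1-2 (x axis), with a line joining the 2 arrays of each cell line. Open circles are values not well above background. S100P and S100A4 slope up in all 3 lines, and S100A2 slopes down in all 3. For S100A7, S100A8, and S100A9, HSC-3 is separated from the other lines far more than the siRNAs are from each other.

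S100A4 is a metastasis-associated protein that binds nonmuscle myosin IIA. For its log2 level, the HSC-3 arrays read 1.20 under siCtrl and 4.74 under siDLEU1-2, the KON arrays −1.54 and 0.32, and the Ca9-22 arrays 3.65 and 5.50. The siDLEU1-2 array was thus the higher one within every line, while the groups overlapped across lines because the control level in Ca9-22 exceeded the treated level in KON. In HSC-3 the increase was 11.7-fold, against 3.63-fold in KON and 3.61-fold in Ca9-22. The mean log2 change of 2.42 ± 0.97 (SD, n = 3 lines) passed the test (limma adjusted p = 0.0375), making S100A4 the only 1 of 7 tested members called higher, against 3.98% of all probes tested. In KON the S100A4 signal was low, and its log2 change was 1.25 in place of 1.86 when the background was corrected by normexp.

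S100P binds ezrin inside the cell and RAGE outside it, and it is abundant in several carcinomas. As log2 levels, its control and knockdown values were 0.82 and 6.82 for HSC-3, 5.40 and 6.90 for KON, and −1.57 and 2.20 for Ca9-22. HSC-3 therefore went from a control level near the 75th percentile of the array to the level of KON, which already had the highest control level of the 3 lines. The fold change was 64.1 in HSC-3, but 13.6 in Ca9-22 and 2.83 in KON. In Ca9-22, where the control signal was low, the log2 change of 3.76 became 2.91 when the background was corrected by normexp. With this spread the mean log2 change of 3.76 ± 2.25 (SD, n = 3 lines) missed the threshold (limma adjusted p = 0.0669). When the test was restricted to probes exceeding background on all 6 arrays, the limma adjusted p of the same change was 0.0469, whereas it was 0.181 with the filter of at least 1 of 6 arrays, 0.232 with no filter, and 0.883 without the line as a block. With a line left out it was 0.103 to 0.153, and the mean log2 change 2.63 to 4.88. S100P and S100A4 were the 2 of 7 members that were over 2-fold higher in all 3 lines, against 2.08% of all probes, and 0 of 7 were over 2-fold lower in all 3, also against 2.08%.

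S100A2, a mostly nuclear protein of basal keratinocytes that binds p53, went the other way. On the log2 scale, HSC-3 gave 9.67 with siCtrl and 8.06 with siDLEU1-2, KON gave 8.57 and 7.23, and Ca9-22 gave 8.78 and 7.94. All 3 control values exceeded all 3 knockdown values, and the level remained far above the 75th percentile of the array in every line. Ca9-22 showed a decrease of 1.8-fold, compared with 3.05-fold in HSC-3 and 2.53-fold in KON. The mean log2 change of −1.26 ± 0.39 (SD, n = 3 lines) passed the test (limma adjusted p = 0.035), and S100A2 was the only 1 of 7 tested members called lower, against 4.52% of probes. Of 12 tested probes for squamous markers 3 fell and 0 passed the test as higher, with a median of the mean log2 change of −0.72 against 0.01 over all probes. Those that fell were KRT6A, which encodes a keratin of activated keratinocytes (mean log2 change −1.33 ± 0.13, SD; limma adjusted p = 0.0247), the desmosomal cadherin gene DSC3 (−1.14 ± 0.17; 0.0292), and SFN, which encodes 14-3-3 sigma (−0.81 ± 0.19; 0.047). A second DSC3 probe was not well above background in Ca9-22 and was not tested. Its log2 changes were −1.07 for HSC-3, −0.68 for KON, and 0.36 for Ca9-22. EPCAM, which encodes an epithelial adhesion molecule, had log2 changes of 1.78 for HSC-3, 0.86 for KON, and 0.64 for Ca9-22, opposite to S100A2 (mean 1.09 ± 0.60; limma adjusted p = 0.0741). The keratin gene KRT5 had a mean log2 change of −1.14, the DSP probes of −0.58 and −0.63, and the KRT14 probes of −1.72, −1.57, and 0.01, while KRT17 gave 0.14 and CDH3 0.01, none of which passed. The summed linear level of the 9 marker genes ranged from 495 to 1290 with siCtrl and from 362 to 799 with siDLEU1-2, with 28.3% to 59.7% of the sum from SFN, and their part in the S100A2 result was not tested.

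The p-values measure only the spread of the response among the 3 lines, which are the sole replicates. The S100A4 and S100A2 calls ended whenever any line was left out: their adjusted p was 0.0808 and 0.115 without HSC-3, 0.117 and 0.132 without KON, and 0.0719 and 0.0608 without Ca9-22. Their mean log2 changes were then 1.86 to 2.7 for S100A4 and −1.47 to −1.09 for S100A2. Without HSC-3 or KON limma called 0 probes of the whole table, so no call could remain. Both calls also ended when the filter required only 1 of the 6 arrays to be well above background (0.134 and 0.129). That filter let in 27993 probes, of which limma called 0%, DLEU1 not excepted, while 5547 had an unadjusted p under 0.05.

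S100A8 and S100A9 form the heterodimer calprotectin, a zinc- and manganese-sequestering alarmin that keratinocytes make under stress and that myeloid cells hold in large amounts. S100A8 arrays of HSC-3 had log2 levels of 7.78 with siCtrl and 6.01 with siDLEU1-2, those of KON 0.15 and −3.26, and those of Ca9-22 −4.52 and −5.25. The KON value with siDLEU1-2 and both Ca9-22 values were not well above background. With siDLEU1-2, S100A8 was 3.42-fold lower in HSC-3. In KON it was at least 10.7-fold lower, where the bound uses the lowest signal that counted as well above background on that array or the probe's own value if higher. With normexp the log2 change in KON was −1.83, a smaller change than that bound, which holds for the processed signal only.

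S100A9 behaved like its partner. For its log2 level, the HSC-3 arrays read 6.29 under siCtrl and 5.11 under siDLEU1-2, the KON arrays 0.12 and −1.37, and the Ca9-22 arrays −5.59 and −4.67, where neither array was well above background. The siDLEU1-2 array was 2.26-fold lower in HSC-3 and 2.81-fold lower in KON. A fit of HSC-3 and KON alone, chosen after these levels had been seen, gave a mean log2 change of −1.33 for S100A9 (limma adjusted p = 0.0932). S100A8 had no reliable KON value with siDLEU1-2, so no test is given for it. With 2 lines that fit called 0% of 21314 probes, although 4505 had an unadjusted p under 0.05.

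S100A7, or psoriasin, is an antimicrobial protein of inflamed epidermis. As log2 levels, its control and knockdown values were 5.38 and 4.21 for HSC-3, −3.14 and −3.63 for KON, and −5.03 and −4.93 for Ca9-22, with the last 3 values not well above background. It was thus measured well in HSC-3, where the siDLEU1-2 array was 2.26-fold lower, and no test is given for it. In KON the processed signal was at least 1.3-fold lower, and the log2 change was −0.11 with normexp. The S100A7 probe was spotted 10 times per array, and the SD of its log2 signal over these spots was 0.05 on both HSC-3 arrays. With the siCtrl array first, that SD was 0.2 and 0.25 for KON and 0.47 and 0.6 for Ca9-22. Cross-hybridization of this probe with the close copy S100A7A was not tested. One S100A7A probe was well above background in HSC-3 with log2 levels of −0.89 and −0.70, and the other on no array.

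**Figure D2:**
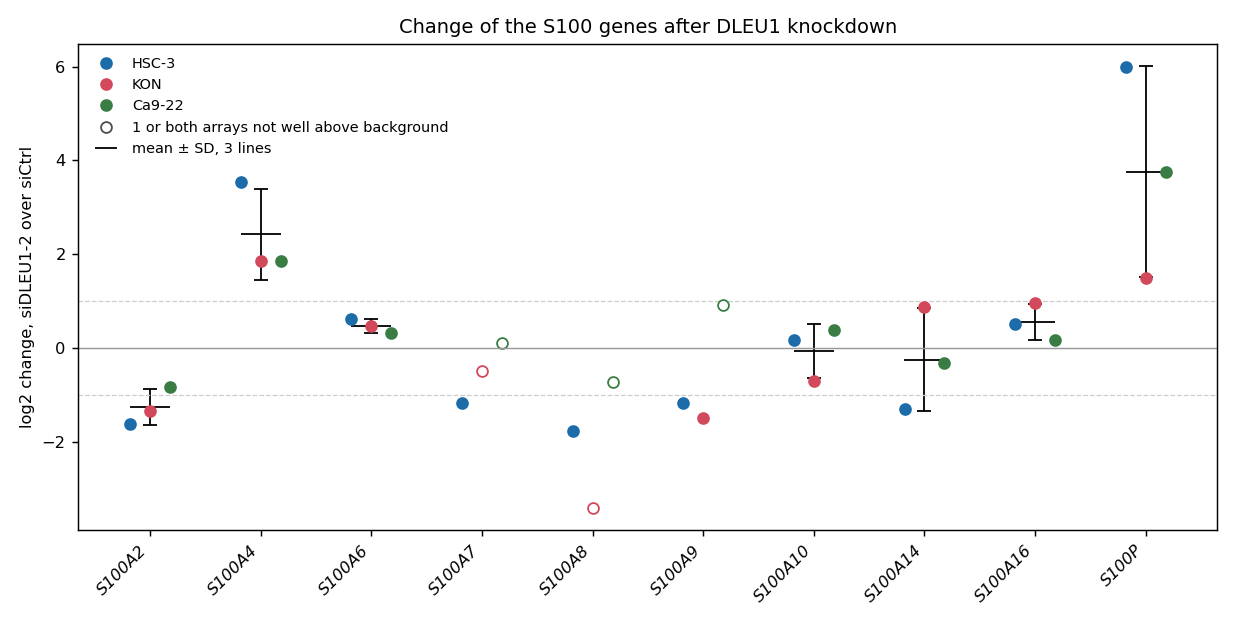
Log2 change of each S100 gene after DLEU1 knockdown (siDLEU1-2 over siCtrl, y axis) in each line (colored points), with the mean ± SD over 3 lines as black bars for the 7 tested genes. Dashed lines mark 2-fold, and open circles are changes with at least 1 array not well above background. S100A4 and S100P lie above the upper dashed line in all 3 lines, and S100A2 lies below 0 in all 3.

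S100A6, or calcyclin, interacts with calcyclin-binding protein and annexins and is linked to proliferation. On the log2 scale, HSC-3 gave 8.15 with siCtrl and 8.76 with siDLEU1-2, KON gave 5.34 and 5.80, and Ca9-22 gave 6.32 and 6.65. The differences were small but all positive, with a mean log2 change of 0.47 ± 0.14 (SD, n = 3 lines; limma adjusted p = 0.111). S100A16, a widely expressed member linked to adipogenesis, showed the same pattern. For its log2 level, the HSC-3 arrays read 6.78 under siCtrl and 7.30 under siDLEU1-2, the KON arrays 5.00 and 5.95, and the Ca9-22 arrays 5.54 and 5.72, with a mean change of 0.55 ± 0.39 (SD; limma adjusted p = 0.151).

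The other pair differed in sign between lines. S100A10, the p11 subunit that binds annexin A2 without needing calcium, had log2 levels of 7.75 with siCtrl and 7.91 with siDLEU1-2 for HSC-3, 6.57 and 5.87 for KON, and 6.58 and 6.96 for Ca9-22. Its mean log2 change was −0.06 ± 0.57 (SD, n = 3 lines; limma adjusted p = 0.909). S100A14, an epithelial member, had log2 levels of 6.31 with siCtrl and 5.00 with siDLEU1-2 for HSC-3, −0.80 and 0.08 for KON, and 5.35 and 5.04 for Ca9-22. KON stood apart from the other lines on both of its arrays. Its mean change was −0.25 ± 1.10 (SD; limma adjusted p = 0.75), with the spread over lines exceeding the mean in both genes.

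Counting either direction, 4 of 7 tested members differed over 2-fold between the siRNAs in HSC-3 against 14.2% of all probes, 3 of 7 in KON against 14.6%, and 2 of 7 in Ca9-22 against 13%. The 4 in HSC-3 were S100A2, S100A4, S100A14, and S100P. S100A14 was within 2-fold in KON and Ca9-22, and S100A2 within 2-fold in Ca9-22. The median of the mean log2 change was 0.47 over the 7 members and 0.01 over all probes tested. The direction was the same in all 3 lines for 5 of 7 members (71.4%) and for 53.6% of all probes.

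The lines differed widely in the level of most S100 genes. The range of the 3 line means, on the log2 scale, had a median of 2.88 over the 7 tested members and of 0.96 over all probes tested. S100A14 varied most among the tested members, with a range of 6.02, followed by S100P with 5.83 and S100A4 with 5.19. S100A2 varied least, with a range of 0.97. Line contrasts came from the same limma fit, with siRNA as a term and 2 arrays per line. These were 1 siCtrl and 1 siDLEU1-2 array, so no line had replicate arrays. The p-values and confidence intervals of the line contrasts measure only how far line and siRNA effects fail to add up. KON differed from HSC-3 for 6 of 7 tested members, against 36.2% of all probes. Ca9-22 differed from HSC-3 for 2 of 7, against 36.6%, and from KON for 4 of 7, against 33.2%.

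KON stood apart in S100A14. Its line mean was 5.65 for HSC-3, 5.20 for Ca9-22, and −0.36 for KON, so that KON was 64.7-fold below HSC-3 (limma adjusted p = 0.00653) and 47.1-fold below Ca9-22 (limma adjusted p = 0.00753). The log2 difference between KON and HSC-3 was −7.11 on the siCtrl arrays and −4.92 on the siDLEU1-2 arrays. The difference between Ca9-22 and HSC-3 did not pass the test, with a log2 difference of −0.46 (95% confidence interval −1.85 to 0.93; limma adjusted p = 0.521).

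KON was also lowest in S100A4, with a line mean of −0.61 against 2.97 in HSC-3 and 4.57 in Ca9-22. The difference was 12-fold from HSC-3 (limma adjusted p = 0.0101) and 36.5-fold from Ca9-22 (limma adjusted p = 0.00749). Against HSC-3 it was −2.75 with siCtrl and −4.43 with siDLEU1-2 on the log2 scale. The upper 2 lines differed by 1.60 on the log2 scale without passing the test (limma adjusted p = 0.0574), and their arrays overlapped. This difference was 2.45 on the siCtrl arrays and 0.76 on the siDLEU1-2 arrays, and it passed with quantile normalization (limma adjusted p = 0.03), with the 75th percentile taken over bright probes (0.04), with normexp (0.0493), and with the filter on all 6 arrays (0.041). The order was different for S100P, in which KON was highest with a line mean of 6.15, HSC-3 followed with 3.82, and Ca9-22 was lowest with 0.32. KON exceeded Ca9-22 by 57.1-fold (limma adjusted p = 0.019), with Ca9-22 minus KON log2 differences of −6.97 on the siCtrl arrays and −4.70 on the siDLEU1-2 arrays, whereas the difference between KON and HSC-3 was 2.33 (95% confidence interval −0.43 to 5.09; limma adjusted p = 0.144). That last difference was 4.58 on the siCtrl arrays and 0.08 on the siDLEU1-2 arrays.

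HSC-3 had the highest level of S100A6, S100A10, and S100A16. For S100A6 all neighbors in the order differed, with KON 2.88 (limma adjusted p = 0.00463) and Ca9-22 1.97 (limma adjusted p = 0.00599) below HSC-3 on the log2 scale, and Ca9-22 above KON by 0.91 (limma adjusted p = 0.021). S100A16 was 1.56 lower in KON (limma adjusted p = 0.0131) and 1.41 lower in Ca9-22 (limma adjusted p = 0.0157), while KON and Ca9-22 differed by 0.15 (95% confidence interval −0.48 to 0.78). S100A10 was 1.61 lower in KON (limma adjusted p = 0.0203) and 1.06 lower in Ca9-22 (limma adjusted p = 0.0535). S100A2 was the most even gene, with line means of 8.86 for HSC-3, 8.36 for Ca9-22, and 7.90 for KON. Its difference of −0.97 between KON and HSC-3 passed the test (limma adjusted p = 0.037), although the arrays of the 2 lines overlapped. The call ended with quantile normalization (limma adjusted p = 0.112), with the 75th percentile taken over bright probes (0.052), with no filter (0.105), with the filter of 1 of 6 arrays (0.0772), and with cell line as the only term (0.391).

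With cell line as the only term, 7 of these calls ended, namely S100A2, S100A4 (0.141), and S100A16 (limma adjusted p = 0.0565) between KON and HSC-3, S100A16 between Ca9-22 and HSC-3 (0.0696), and S100A4 (0.0717), S100A6 (0.12), and S100P (0.151) between Ca9-22 and KON. With no filter on dim probes, S100A10 between KON and HSC-3 (0.0609) and S100A6 (0.0653) and S100P (0.0523) between Ca9-22 and KON also missed the threshold. Between Ca9-22 and HSC-3 some differences that missed the threshold passed under other settings. S100A10 passed with centring on the median, with normexp, with the filter on all 6 arrays, with a floor set for dim values, and with only the 4 arrays of the pair (limma adjusted p = 0.0306 to 0.0474), and S100P (limma adjusted p = 0.0582) passed with the filter on all 6 arrays (0.0411) and with only those 4 arrays (0.0344).

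**Figure D3:**
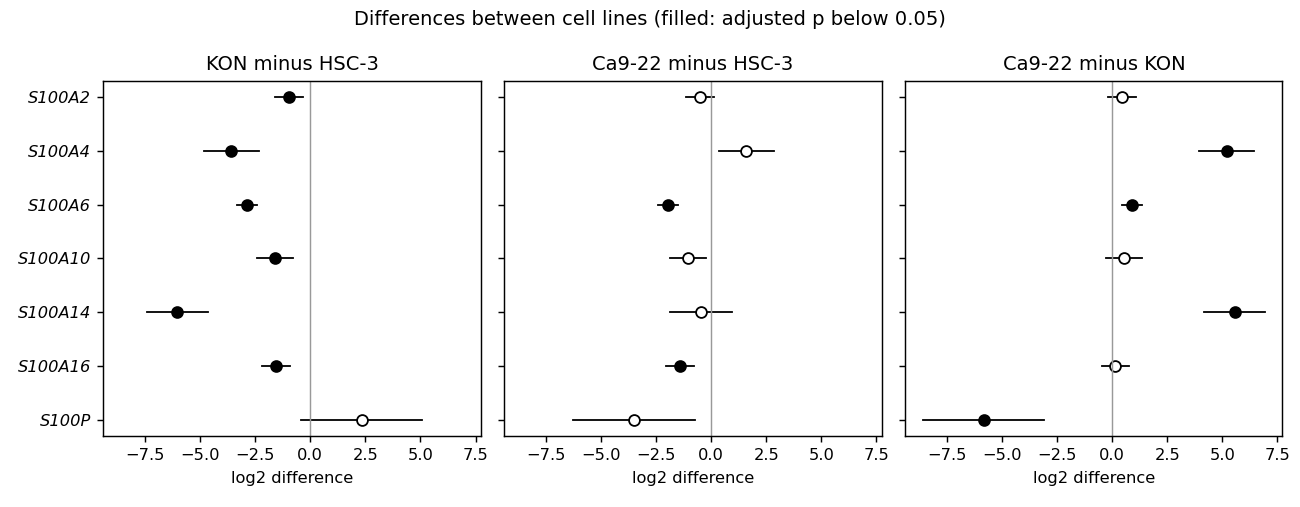
Log2 difference in level between cell lines (x axis) for the 7 tested S100 genes (y axis), with 95% confidence intervals from limma. Filled points have an adjusted p below 0.05. S100A14 is far lower in KON than in HSC-3 or Ca9-22, and S100P is lower in Ca9-22 than in KON.

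S100A7, S100A8, and S100A9 were far brighter in HSC-3 than in Ca9-22. Their HSC-3 line means were 4.79, 6.90, and 5.70, and neither Ca9-22 array was well above background for any of them. For the processed signal, HSC-3 exceeded Ca9-22 by at least 286-fold for S100A7, at least 1230-fold for S100A8, and at least 535-fold for S100A9. The normexp log2 differences between Ca9-22 and HSC-3 were smaller than these bounds, at −6.49 for S100A7, −8.52 for S100A8, and −7.45 for S100A9. These values are a description, since the probes could pass a filter only through the lines in which they were bright.

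KON lay between the other lines for S100A9, with a line mean of −0.63, 80.1-fold below HSC-3 and, for the processed signal, at least 6.68-fold above Ca9-22. With normexp the S100A9 difference between Ca9-22 and KON was smaller, at −1.69. In KON only the siCtrl array was well above background for S100A8 and for S100A7, and no bound is given for them there. CD14, a myeloid marker, had the same order of lines. With the siCtrl value first, its log2 levels were 5.58 and 6.01 for HSC-3, 0.39 and 0.90 for KON, and −2.28 and −1.70 for Ca9-22. The 6 myeloid markers together had a summed linear level of 48.4 and 65.7 for HSC-3, 1.52 and 2.22 for KON, and 0.509 and 0.595 for Ca9-22, with 2 or 3 of the 6 genes above background on each array. CD14 made up 83.9% to 99.2% of that sum in HSC-3 and KON and 40.4% to 51.7% in Ca9-22, so the sum in the first 2 lines is essentially its level. CSF3R, which encodes a granulocyte growth factor receptor, did not separate KON from Ca9-22. With the siCtrl value first, its log2 levels were −3.14 and −2.48 for KON and −3.09 and −2.88 for Ca9-22, so their arrays overlapped. Its knockdown changes were 2.08 for HSC-3, 0.66 for KON, and 0.21 for Ca9-22 on the log2 scale. CSF3R did not pass the test (mean 0.98 ± 0.98, SD, n = 3 lines; limma adjusted p = 0.182). ITGAM was well above background only on the Ca9-22 siCtrl array. PTPRC, the pan-leukocyte marker, had 5 probes, of which 4 were not well above background on any array. The fifth was well above background on the HSC-3 and KON siDLEU1-2 arrays, at log2 levels of −2.78 and −2.80, against −4.30 and −4.49 on their siCtrl arrays. The part of myeloid markers in the order of the lines was not tested.

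Few of the further S100 genes could be tested. Of 16 probes for 11 further S100 genes, 5 were tested and 0 rose or fell, against 3.98% and 4.52% of all probes, with a median mean log2 change of 0.23, and 8 were not well above background on any array, S100A1, S100B, S100G, and S100Z among them. S100A11, which partners annexin A1, was above the 75th percentile on every array, and its 2 probes had mean log2 changes of 0.20 and 0.24 (limma adjusted p = 0.426 and 0.367). S100A12, the third calgranulin, was well above background only in HSC-3, with log2 levels of 2.27 and 1.36 for one probe and 0.94 and 0.22 for the other, siCtrl first.

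Fused-type S100 genes encode large cornified-envelope proteins that carry an S100 domain, and 0 of their 11 probes passed the filter. FLG, which encodes filaggrin, gave its brightest values with siDLEU1-2. The brightest of its 3 probes had log2 levels of −4.62 with siCtrl and 1.15 with siDLEU1-2 for HSC-3, −6.04 and −4.58 for KON, and −1.91 and 1.95 for Ca9-22, of which the HSC-3 siCtrl value and both KON values were not well above background. CRNN, which encodes cornulin, was well above background on 1 array, with a log2 level of 0.37 in HSC-3 with siDLEU1-2. These genes were not tested in the main comparison, and FLG and CRNN were named after their values were seen.

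Receptors and binding partners form the other side of S100 action. Of 9 probes for 5 receptor genes, 4 were tested and 0 rose or fell, against 3.98% and 4.52% of all probes, with a median of 0.38. NPTN, which encodes the S100A8/S100A9 receptor neuroplastin, had mean log2 changes of 0.39 ± 0.02 (SD) and 0.37 ± 0.04 with its 2 probes (limma adjusted p = 0.137 and 0.147). One AGER probe was tested, with a change of 0.52 ± 0.72 (limma adjusted p = 0.323). TLR4 and CD36 were not tested because they were dim in at least 1 line.

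Among annexins, 2 of 7 tested probes rose, against 3.98% of all probes, and 0 fell, with a median of the mean log2 change of 0.63 against 0.01 over all probes. ANXA2, the partner of S100A10, had log2 levels with its brighter probe of 7.73 with siCtrl and 8.40 with siDLEU1-2 for HSC-3, 7.36 and 8.06 for KON, and 7.49 and 8.28 for Ca9-22. All knockdown values exceeded all control values. This was a mean log2 change of 0.72 ± 0.06 (SD, n = 3 lines; limma adjusted p = 0.0467), while the second ANXA2 probe gave 0.63 ± 0.25 (limma adjusted p = 0.081). The second probe called higher was 1 of 3 for ANXA11, which encodes an annexin that binds S100A6, with 1.02 ± 0.27 (limma adjusted p = 0.0384), against 0.49 and 0.63 for the other ANXA11 probes, which did not pass.

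Of 18 tested probes for the other partners, 1 was called higher, against 3.98% of all probes, and 0 lower, with a median of 0.29. The probe was 1 of 3 for AHNAK, a gene whose giant scaffold protein binds the S100A10 and annexin A2 complex. The array design assigned the called probe to a different AHNAK transcript from that of the other AHNAK probes. Whether that transcript encodes the giant protein was not determined here. As log2 levels, control and knockdown values of the called probe were 2.0 and 3.46 for HSC-3, 1.34 and 3.48 for KON, and 2.33 and 4.37 for Ca9-22. Each line was higher with siDLEU1-2, by a mean log2 change of 1.88 ± 0.36 (SD; limma adjusted p = 0.0247), whereas the other AHNAK probes gave 0.70 ± 0.12 (limma adjusted p = 0.0527) and 0.54 ± 0.16 (limma adjusted p = 0.0895). EZR, which encodes the S100P partner ezrin, had a mean log2 change of 0.97 ± 0.46 (limma adjusted p = 0.0646), and MYH9, the myosin heavy chain bound by S100A4, one of 0.64 with each of its 2 probes (limma adjusted p = 0.125 and 0.113). S100A4 is also expressed by fibroblasts. Of the 6 fibroblast markers COL1A1 rose by a mean log2 change of 1.45 ± 0.57 (limma adjusted p = 0.0423), and the other 5 were above background on no array, except DCN on 1. The summed linear level of the list ranged from 0.749 to 0.914 with siCtrl and from 1.72 to 2.87 with siDLEU1-2, of which COL1A1 made up 85.4% to 95.1%. The part of this list in the S100A4 result was not tested.

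**Figure D4:**
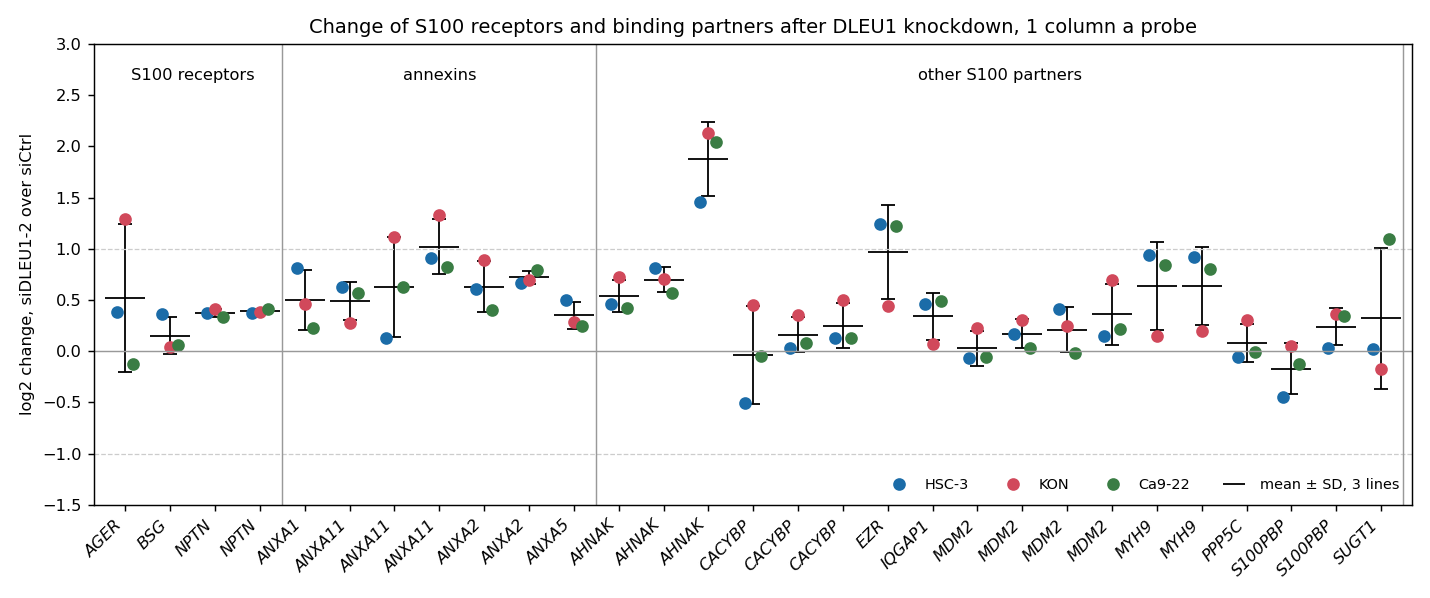
Log2 change after DLEU1 knockdown (y axis) of each tested probe for S100 receptors, annexins, and other S100 partners (x axis, 1 column per probe), with points for the 3 lines and black bars for the mean ± SD. Dashed lines mark 2-fold. AHNAK is the only gene with a probe over 2-fold higher in all 3 lines, and the 7 annexin probes all have means above 0.

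The genes whose levels followed a member most closely over the 6 arrays were taken for the member with the largest mean change and for the tested member with the widest range between lines. The measure was Pearson's correlation of log2 levels over 15344 probes, and the 6 points share 3 lines and 2 siRNAs. LIMCH1 (r = 0.998), CD55 (r = 0.995), and PLEKHB2 (r = 0.995) were closest to S100P. LIMCH1 had log2 levels of −0.81 with siCtrl and 2.19 with siDLEU1-2 for HSC-3, 1.23 and 2.26 for KON, and −2.09 and −0.12 for Ca9-22. Its HSC-3 level reached that of KON, a pattern shared with S100P through the choice by correlation. ZNF75D (r = 0.999), HELZ (r = 0.998), and PANX1 (r = 0.997) were closest to S100A14. ZNF75D had its lowest log2 levels in KON, at −1.98 with siCtrl and −1.68 with siDLEU1-2.

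The knockdown reagent itself is shown because a siRNA can also act through its seed. The antisense strand of siDLEU1-2 is given 5′ to 3′ with bases 2 to 8 in capitals.
siDLEU1-2 antisense: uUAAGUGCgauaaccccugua
The complement of the seed, GCACTTA, was present in 0 of 10 member probes and in 138 of 50599 probes (0.273%). A probe covers 60 bases of its transcript, and the rest of the transcripts was not searched.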

How the data were processed

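RNA (100 ng) from 6 samples was labeled with Cy3 and hybridized to SurePrint G3 Human GE v2 arrays, 1 per cell line and siRNA, on 1 slide. The authors deposited scanner output of Agilent Feature Extraction 10.7.3.1, in which the processed signal intensity is background-subtracted and detrended but not normalized between arrays. The deposited series table held these intensities within 0.497%. Probe coordinates are hg19. The study's normalization and filter settings are not given in the sources used here.

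Outlier spots were dropped, spots of a probe averaged, and each array's 75th percentile subtracted from its log2 intensities. Probes with 50% or more of their spots flagged as well above background by the scanner software passed on that array. Probes that passed on 1 or both arrays of every line (19956 of 50599) were tested with limma 3.58.1 (R 4.3.3), with cell line as a block and Benjamini-Hochberg adjustment at 0.05. The same-line arrays shared their deviations from group means (correlations 0.85, 0.84, and 0.85), and the cell line pairs them. Members and gene lists were chosen with earlier results of these data known. All members are named. From the lists, probes past the threshold are named first, at most 6 per list, and those named beyond that were chosen after their values were seen. FCGR3B and LYZ are not analysed here, and 1 further squamous marker is not reported here and was left out of the counts and sums of its list. Of 36337 gene names, 20446 matched a RefSeq symbol, all 10 members included. Scripts were tested on simulated data. The number of arrays limits the precision, and no spot was saturated (0).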

Additional observations from a re-analysis of the deposited data

Results flagged for a closer look

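S100A10 and S100A14, both well above background on all arrays, changed in opposite directions in different lines, and with 1 array per line and siRNA the difference between lines was not tested. The log2 change of S100A10 after DLEU1 knockdown was 0.16 for HSC-3, −0.70 for KON, and 0.38 for Ca9-22. The log2 change of S100A14 was −1.30 for HSC-3, 0.88 for KON, and −0.32 for Ca9-22. KON was the line with the opposite sign for both genes.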

How the results depend on the processing

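The knockdown calls for S100A4 (1 higher) and S100A2 (1 lower) kept their direction under all alternatives run. Both counts were 0 with no filter on dim probes, with a filter of at least 1 of 6 arrays, without the replicate block (adjusted p = 1.0 for S100A4 and 0.582 for S100A2), and when each line was left out in turn (0 to 0 higher, 0 to 0 lower). With no filter, with the filter of at least 1 of 6 arrays, and without the block, limma called 0 probes of the whole table, with 6816, 5547, and 1357 at an unadjusted p under 0.05. Without HSC-3 or KON it also called 0 (4547 and 4676), and without Ca9-22 it called 127 higher and 117 lower. The filter on all 6 arrays gave 2 of 7 members higher, adding S100P. Under it 991 of 18094 probes were called higher, against 795 of 19956 in the main test. The count of 2 genes over 2-fold in every line became 1 at 3-fold and was 2 to 3 with a line left out. The shares of all probes for these alternative fold counts are not given here.

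The count for Ca9-22 against HSC-3 (2 of 7) was 4 of 7 with normexp and 5 of 7 with the filter on all 6 arrays. It was 5 of 10 with no filter or the filter of at least 1 of 6 arrays. Of these, 3 were S100A7, S100A8, and S100A9, which entered only through the lines where they were bright. The count was 4 of 7 with only the arrays of the pair. With cell line as the only term the 3 line counts were 3 (KON against HSC-3), 1 (Ca9-22 against HSC-3), and 1 (Ca9-22 against KON). The shares of all probes called in the line contrasts under these settings are not given here. Whether the counts moved with the whole table was therefore not tested. Signs turned for the change of S100A14 without HSC-3 (0.28; range with a line left out −0.81 to 0.28) and of S100A10 without KON (0.27; −0.27 to 0.27), for S100A2 between Ca9-22 and HSC-3 with quantile normalization (0.03), and on siDLEU1-2 arrays alone for S100A14 between Ca9-22 and HSC-3 (0.03) and S100A16 between Ca9-22 and KON (−0.23). The causes were not tested. Slide as a block was not run, since there was 1 slide.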
